A study of Homo sapiens with 3 samples.

Results

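SRF-driven actin cytoskeleton genes were followed in PANC-1 cells, an established human pancreatic cancer cell line, that were left untreated, treated with Ginsenoside Rg3 (Rg3) or treated with tamoxifen (TAM). The group holds 10 genes, picked by their symbols from the 51136 genes of the count table: SRF, ACTB, ACTG1, TAGLN, TAGLN2, MYL9, TPM1, TPM2, VCL and FLNA. All 10 were found and all 10 had enough reads to be compared. There is 1 RNA-seq library for each of the 3 conditions. The labels give 200 μM Rg3 and 50 μM TAM for 24 h, state that the control cells had no agent, and name neither a vehicle nor a control time. The study, on cantharidin in pancreatic cancer xenografts, later paired that compound with either drug and sequenced RNA to describe expression after each drug, and none of these 3 libraries had cantharidin.

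Serum response factor (SRF) is a transcription factor that binds a short promoter motif, the CArG box. One set of cofactors, the myocardin-related factors (MKL1 and MKL2 in this table), is held back by free actin monomers and enters the nucleus when monomers are used up into filaments, so that SRF activity follows the state of the actin cytoskeleton. Many of the genes that this branch switches on encode actin itself and proteins that bundle, tether or contract actin filaments. A further set of cofactors, the ELK factors, links SRF to growth factor signalling and to immediate early genes. In epithelial tumor cells the same proteins build stress fibers, cell-matrix adhesions and the cell cortex.

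The 10 genes were grouped by role. SRF is the factor itself. ACTB and ACTG1 encode the beta and gamma actins of nonmuscle cells. TPM1 and TPM2 encode tropomyosins, which lie along filaments. TAGLN and TAGLN2 encode transgelins, which cross-link filaments, MYL9 encodes a regulatory light chain of myosin II, FLNA encodes filamin A, a large cross-linker, and VCL encodes vinculin, which ties filaments to adhesions. In GENCODE 29, on the build GRCh38 that the labels name, SRF lies at chr6:43171299-43181507, ACTB at chr7:5527147-5563784, ACTG1 at chr17:81509971-81523847, TAGLN at chr11:117199321-117204782 and TAGLN2 at chr1:159918107-159925732. MYL9 lies at chr20:36541484-36551447, TPM1 at chr15:63042632-63071915, TPM2 at chr9:35681992-35690121, VCL at chr10:73995193-74121363 and FLNA at chrX:154348524-154374638.

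Because SRF binds the CArG box, the 250 bases before the transcription start were searched for its full consensus on both strands in the RefSeq promoter table (GRCh38.p14). Of the 10 genes, 7 had an entry, and ACTB, TAGLN and MYL9 had none. A match was present in 3 of the 7, SRF, ACTG1 and FLNA, against 312 of 27305 promoters of the same length in the table (1.14%). SRF held 2 matches, which start 30 and 10 bases before the transcription start, while 9 of the 27305 promoters held 2 or more. The match in ACTG1 and the match in FLNA each start 94 bases before it. The first SRF match also contains the letters TATAA of a TATA box. The 3 promoters with a match, and that of VCL, which had none and which stood lowest in the TAM library relative to control, are shown with the CArG boxes in capitals, 5′ to 3′ on the strand of the gene.
SRF, chr6:43171019-43171268, plus strand: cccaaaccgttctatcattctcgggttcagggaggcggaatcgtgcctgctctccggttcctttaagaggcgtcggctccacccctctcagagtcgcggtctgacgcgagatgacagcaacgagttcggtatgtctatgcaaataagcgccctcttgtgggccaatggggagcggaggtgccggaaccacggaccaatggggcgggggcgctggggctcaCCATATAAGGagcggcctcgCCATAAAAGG
ACTG1, chr17:81512800-81513049, minus strand: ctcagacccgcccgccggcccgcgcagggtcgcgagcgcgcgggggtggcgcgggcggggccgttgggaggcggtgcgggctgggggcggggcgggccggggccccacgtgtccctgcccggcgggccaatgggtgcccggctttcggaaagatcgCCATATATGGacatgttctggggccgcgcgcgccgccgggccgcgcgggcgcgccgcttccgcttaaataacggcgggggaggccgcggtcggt
FLNA, chrX:154374635-154374884, minus strand: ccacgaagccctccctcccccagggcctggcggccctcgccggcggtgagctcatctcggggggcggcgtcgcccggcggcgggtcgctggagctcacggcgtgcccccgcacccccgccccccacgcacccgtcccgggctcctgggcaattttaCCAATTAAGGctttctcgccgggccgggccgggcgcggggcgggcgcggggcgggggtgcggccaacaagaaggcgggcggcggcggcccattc
VCL, chr10:73997866-73998115, plus strand: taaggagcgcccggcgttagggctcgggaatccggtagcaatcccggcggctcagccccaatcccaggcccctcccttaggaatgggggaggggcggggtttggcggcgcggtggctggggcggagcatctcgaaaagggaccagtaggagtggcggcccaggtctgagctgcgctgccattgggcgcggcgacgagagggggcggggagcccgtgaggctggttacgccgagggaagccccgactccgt
TAGLN2, TPM1 and TPM2 had no match in this window either. Among 15 other cytoskeletal SRF targets searched in the same way, 4 held a match, with 2 in ACTG2 and 1 each in CNN2, FHL2 and TPM4. A match describes letters only, and binding of SRF was not measured in these cells.

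The libraries held 11300766 (control), 12861693 (Rg3) and 11321442 (TAM) reads assigned to genes, and a count of none leaves room for up to 3 of them. Levels are given as counts-per-million after edgeR's TMM scaling (TMM-scaled CPM), and levels of different genes are set against each other per kilobase of the longest GENCODE transcript. Folds are ratios of TMM-scaled counts with exact 95% binomial intervals (Clopper-Pearson), which cover counting error only. A gene was called higher over 1.5-fold and lower under 0.67-fold, the fold limits of the study, with at least 10 counts in either library. Each condition was sequenced once, so that replicate error is unknown, no p-value is given, and a drug effect cannot be told apart from variation between cultures or preparations. Both treated libraries are set against the same control library. Scaling by library totals would place log2 fold changes 0.14 higher with Rg3 and 0.21 lower with TAM. Log2 fold changes across all genes also followed the GC content of transcripts. The Spearman correlation was -0.81 over 11585 genes with Rg3 and 0.51 over 11024 genes with TAM. With transcript length, the correlation over the same genes was 0.20 with Rg3 and -0.45 with TAM. A value after removal of a smooth trend on GC content and length (trend-removed value) is therefore given beside the main one where it matters. The cause of these relations was not tested. In bulk RNA, fewer cells with a transcript and less of it per cell cannot be told apart.

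The actins were among the most abundant transcripts of the cells. ACTB was the 2nd and ACTG1 the 4th most counted gene in the control library, and together they took 1.48% of its reads. Per kilobase, the control levels of ACTB (3265 CPM per kb) and ACTG1 (3208) stood above those of TAGLN2 (765), TPM2 (542) and FLNA (219.7). VCL (51.5), TPM1 (44.0), SRF (20.8) and MYL9 (7.84) followed, and TAGLN was lowest at 0.924 CPM per kb. In the Rg3 library the order was the same except that ACTG1 (1991) stood above ACTB (1779). With TAM, TPM2 (809) stood above TAGLN2 (715), and VCL (21.7) stood below TPM1 (40.3) and SRF (26.7). These orders also depend on the longest transcript being taken as the length, which counting error does not cover. In reads before division by length, the closest neighbours, ACTB and ACTG1 in the control library, took 50.3% and the remainder of their joint reads (95% interval for ACTB, 50.1 to 50.6%). The 10 genes summed to 19219.7 TMM-scaled CPM in control cells, 10968.8 under Rg3 and 19195.1 under TAM. As unscaled shares of library reads, the sums were 1.95%, 1.23% and 1.69%, with TAM below control. Most of each sum was ACTB and ACTG1, at 1.48%, 0.95% and 1.24% of reads.

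**Figure D1:**
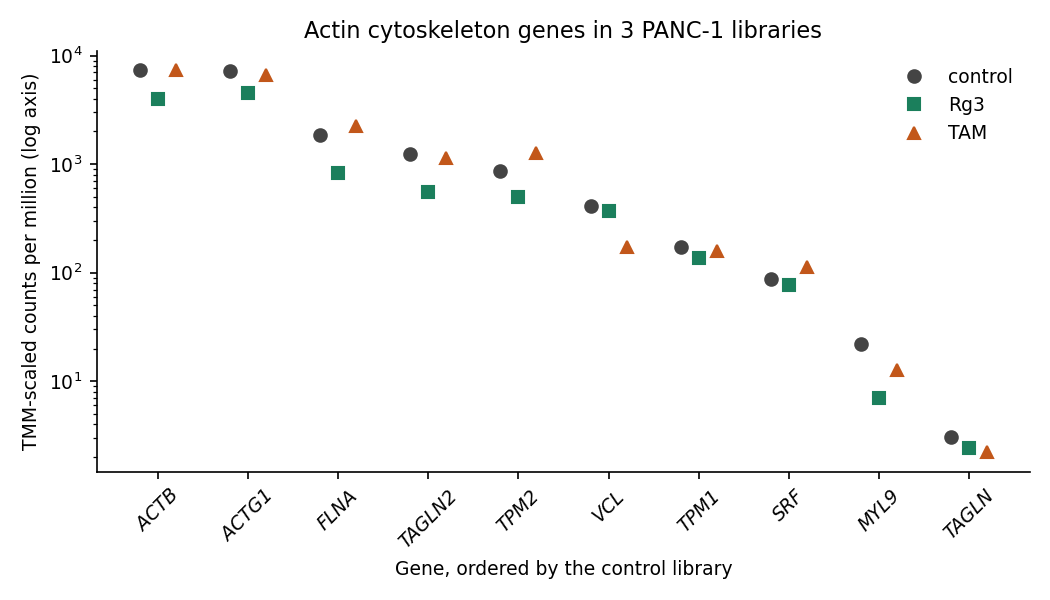
TMM-scaled CPM of the 10 genes (log axis), 1 point for each library, with genes ordered by the control library and no error bar because each condition has 1 library. The Rg3 points lie under the control points for every gene, and the TAM point of VCL lies far under its control point.

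With Rg3, 6 of the 10 genes were called lower and 0 higher. They were MYL9, FLNA, TAGLN2, ACTB, TPM2 and ACTG1, against 19.5% of 16487 genes called lower, 25.0% called higher and 44.6% called in either direction in this comparison. All 10 log2 fold changes were below 0, from -1.64 (MYL9) to -0.17 (VCL), with a median of -0.73 beside a median of 0.04 over all genes compared. After trend removal the median was -0.52, 4 genes were called lower (TAGLN2, MYL9, TPM1 and FLNA) and 0 higher, and SRF and TAGLN took the other sign. Of 14278 genes, 10.9% were lower and 8.10% higher under trend removal.

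With TAM, 2 of the 10 genes were called lower, VCL and MYL9, and 0 were called higher, against 23.8% of 16079 genes called lower, 17.4% called higher and 41.2% called in either direction. The log2 fold changes ran from -1.25 (VCL) to 0.58 (TPM2), 6 below and 4 above 0, with a median of -0.11 beside -0.02 over all genes. The trend-removed median was -0.45, with TAGLN, MYL9 and VCL called lower and 0 higher, against 16.6% of 14015 genes lower and 12.6% higher under trend removal. The call of TAGLN rests on 22 reads against 35, with a wide counting interval before trend removal (-1.30 to 0.35).

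**Figure D2:**
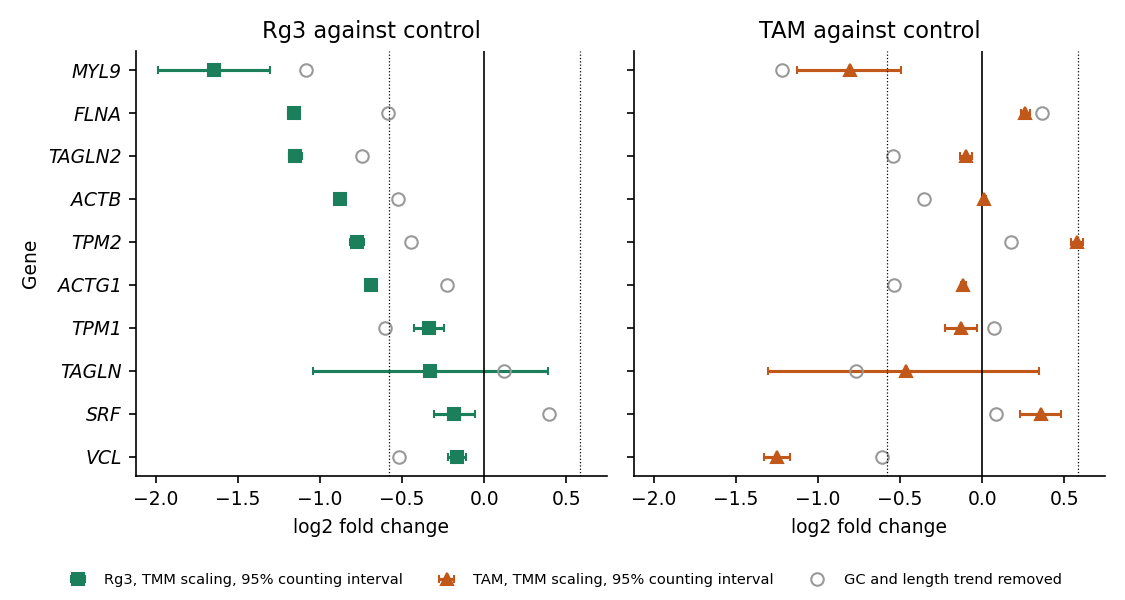
Log2 fold change of each gene against the control library with Rg3 (left) and TAM (right). Filled points are TMM-scaled values with 95% counting intervals, open circles are trend-removed values, and dotted lines mark 1.5-fold and 0.67-fold. With Rg3 all filled points lie left of 0, while with TAM only MYL9 and VCL lie past the lower limit.

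SRF had 1005 reads in control cells, 1111 under Rg3 and 1116 under TAM. These counts gave TMM-scaled levels of 87.5, 77.2 and 112 CPM, and no fold past the limits. The log2 fold change of SRF with Rg3 was -0.18 (95% interval -0.31 to -0.06), which was -0.04 by library totals and 0.39 with the trend removed. With TAM it was 0.36 (0.23 to 0.48), and 0.09 with the trend removed. The transcript of the factor itself thus stayed inside 1.5-fold in both treated libraries under each of these scalings, with a sign that turned with Rg3.

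ACTB had 84159 reads in control cells, 57505 under Rg3 and 73488 under TAM. On the scaled level this was 7329.7, 3993 and 7384 CPM, low with Rg3 alone. The log2 fold change of ACTB was -0.88 with Rg3 (-0.89 to -0.86) and 0.01 with TAM (-0.004 to 0.02), the latter -0.20 by library totals and -0.36 with the trend removed. ACTG1 had 83101, 64682 and 66510 reads in the same order, or 7238, 4492 and 6683 CPM. Its log2 fold change was -0.69 with Rg3 (-0.70 to -0.67) and -0.12 with TAM (-0.13 to -0.10). The TAM value was -0.32 by library totals and -0.54 with the trend removed, close to the limit but not called. The Rg3 value of ACTG1 lay close to the limit: by library totals it was -0.55 and with the trend removed -0.23, and the gene was then not called. For ACTB the Rg3 value was -0.74 by library totals, still called, and -0.52 with the trend removed, not called.

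FLNA had 21478 reads in control cells, 12058 under Rg3 and 22332 under TAM. Its level was 1871 CPM in the control, 837 with Rg3 and 2244 with TAM. FLNA was called lower with Rg3 at -1.16 on the log2 scale (-1.19 to -1.13), with a trend-removed value of -0.58 at the edge of the limit, and its change with TAM was 0.26 (0.24 to 0.29), inside the limits. VCL had 4730, 5290 and 1726 reads, or 412, 367 and 173 CPM, with the TAM library lowest. Its log2 fold change was -0.17 with Rg3 (-0.22 to -0.11) and -1.25 with TAM (-1.33 to -1.17). Under trend removal the values lay close to each other, at -0.52 with Rg3, inside the limit, and -0.61 with TAM, past it. Both are long transcripts, 8516 bases for FLNA and 7995 for VCL, but their GC contents stand apart at 62.2% and 45.1%.

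TPM2 had 9827 reads in control cells, 7212 under Rg3 and 12718 under TAM, or 856, 501 and 1278 CPM. It was low with Rg3 and highest with TAM. The log2 fold change of TPM2 was -0.77 with Rg3 (-0.82 to -0.73), which was -0.44 with the trend removed and then not called. With TAM it was 0.58 (0.54 to 0.62), a fold of 1.49 just under the limit, and with DESeq2's size factors it was 0.61 and called higher, while the trend-removed value was 0.17. TPM1, with 2000, 1987 and 1586 reads and levels of 174, 138 and 159 CPM, was called in neither library. Its log2 fold change was -0.34 with Rg3 (-0.43 to -0.25), which was -0.60 and called lower with the trend removed, and -0.13 with TAM (-0.22 to -0.03), which was 0.07 with the trend removed.

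TAGLN2 had 14091 reads in control cells, 7965 under Rg3 and 11418 under TAM, or 1227, 553 and 1147 CPM. It was called lower with Rg3 at -1.15 on the log2 scale (-1.19 to -1.11, and -0.74 with the trend removed) and was -0.10 with TAM (-0.13 to -0.06). The TAM value of TAGLN2 was -0.31 by library totals and -0.54 with the trend removed, close to the limit but not called. TAGLN, a smooth muscle marker, was near the limit of detection with 35, 35 and 22 reads, or 3.05, 2.43 and 2.21 CPM. A change of TAGLN was not detectable at this depth, with intervals of -1.05 to 0.39 with Rg3 and -1.30 to 0.35 with TAM. MYL9 had 254 reads in control cells, 102 under Rg3 and 126 under TAM, or 22.1, 7.08 and 12.7 CPM. MYL9 was the single gene of the 10 called lower in both treated libraries, at -1.64 with Rg3 (-1.99 to -1.31) and -0.81 with TAM (-1.13 to -0.49), and both values stayed past the limit with the trend removed, at -1.09 and -1.22.

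With TAM set against Rg3, 5 of the 10 genes were called higher, FLNA, TPM2, TAGLN2, ACTB and MYL9, and VCL was called lower. Of the 10 log2 fold changes, 8 were above 0 and 2 below. In this comparison 30.0% of 16493 genes were called higher, 35.4% lower and 65.4% in either direction. FLNA was higher with TAM by 1.42 on the log2 scale (1.39 to 1.45), TPM2 by 1.35 (1.31 to 1.39), TAGLN2 by 1.05 (1.01 to 1.09), ACTB by 0.89 (0.87 to 0.90) and MYL9 by 0.84 (0.45 to 1.23). VCL stood at -1.08 (-1.16 to -1.0). The median over the 10 genes was 0.71, beside -0.08 over all genes, and it was 0.06 with the trend removed. FLNA (1.06), TPM2 (0.62) and TPM1 (0.70) were then called higher and TAGLN (-0.88) lower, against 19.7% of 14268 genes higher and 19.0% lower under trend removal, and the value of VCL was -0.05. MYL9 (-0.12), SRF (-0.29) and ACTG1 (-0.31) took the other sign. The call of TAGLN rests on 22 reads against 35, with a wide counting interval before trend removal (-0.98 to 0.67).

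Shares of reads within pairs of genes in a library do not depend on the scaling between libraries. ACTB took 50.3% of the reads of ACTB and ACTG1 in control cells (95% interval 50.1 to 50.6%), 47.1% under Rg3 (46.8 to 47.3%) and 52.5% under TAM (52.2 to 52.8%). TPM2 took 83.1% of the reads of TPM1 and TPM2 in control cells (82.4 to 83.8%), 78.4% under Rg3 (77.5 to 79.2%) and 88.9% under TAM (88.4 to 89.4%). Both shares of reads were lowest with Rg3 and highest with TAM. Which way a share runs depends on the gene of the pair that is taken. VCL took 18.0% of the reads of VCL and FLNA in control cells (17.6 to 18.5%). Under Rg3 it took 30.5% (29.8 to 31.2%) and under TAM 7.17% (6.85 to 7.51%). The VCL share was thus highest with Rg3, and the remaining FLNA share was lowest with Rg3 and highest with TAM. TAGLN, as a share of the reads of TAGLN and TAGLN2, was 0.248% in control cells (0.173 to 0.344%), 0.438% under Rg3 (0.305 to 0.608%) and 0.192% under TAM (0.121 to 0.291%), also highest with Rg3 but from 35 TAGLN reads or fewer. The ratio of VCL to FLNA differed by 0.99 on the log2 scale between Rg3 and control (0.93 to 1.06), but by 0.063 from the trend-removed values. Between TAM and control it differed by -1.51 (-1.59 to -1.43), and by -0.97 from the trend-removed values. The ratio of TPM2 to TPM1 was -0.44 with Rg3 on this scale (-0.54 to -0.34) and 0.71 with TAM (0.60 to 0.81), and from the trend-removed values 0.16 and 0.10, so that its direction with Rg3 turned. That of ACTB to ACTG1 was -0.19 with Rg3 (-0.21 to -0.17) and 0.13 with TAM (0.11 to 0.15), and -0.30 and 0.18 from the trend-removed values. The GC contents are 55.3% for TPM2 against 45.9% for TPM1 and 62.2% for FLNA against 45.1% for VCL, while ACTB (55.1%) and ACTG1 (57.8%) are closer to each other. These ratio intervals are normal approximations on the log scale and cover counting error only.

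**Figure D3:**
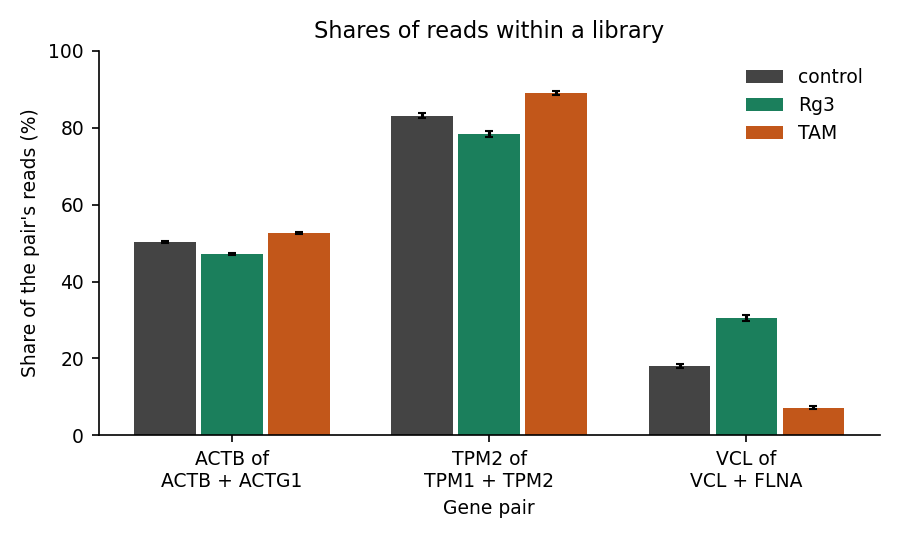
Share of reads (in %) of ACTB among ACTB and ACTG1, of TPM2 among TPM1 and TPM2, and of VCL among VCL and FLNA, with 1 bar for each library and exact 95% binomial intervals. The actin and tropomyosin shares are lowest with Rg3 and highest with TAM, and the vinculin share is highest with Rg3 (30.5%) and lowest with TAM (7.17%). The shares are of reads as counted, with no trend removed.

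The place of the 10 genes on the trend of GC content and length differed between them. Their GC contents ran from 45.1% (VCL) to 62.2% (FLNA), with a median of 57.1%, above the median of 48.6% over the genes compared with Rg3. At their GC content and length, the trend with Rg3 stood at -0.58 on the log2 scale for FLNA, -0.35 for ACTB and -0.46 for ACTG1, and at 0.27 for TPM1 and 0.36 for VCL. MYL9, TAGLN2, TPM1, FLNA, ACTB, VCL, TPM2 and ACTG1 lay below the trend with Rg3, and TAGLN and SRF lay above it. With TAM the trend stood at -0.64 for VCL, at -0.10 for FLNA and at 0.37 for ACTB, and MYL9 and TAGLN lay farthest below it (-1.22 and -0.77).

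**Figure D4:**
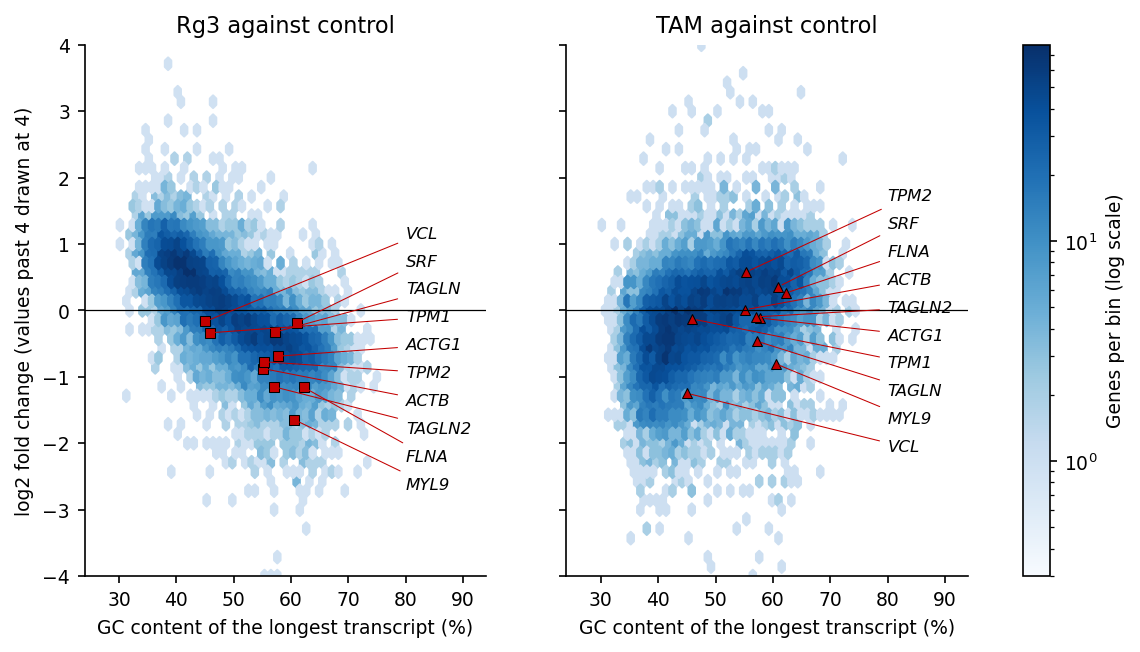
Log2 fold change against the GC content (in %) of the longest transcript, with Rg3 (left) and TAM (right). Shading gives the number of genes per bin and red points are the 10 genes. Across all genes the values fall with GC content with Rg3 and rise with TAM, MYL9 lies low in its GC range in both panels, and VCL lies low with TAM.

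Reads of near-identical genes bear on the actins and on TAGLN2. Of the stretches of 50 bases of the longest transcript, 7.01% in ACTB, 3.58% in ACTG1 and 9.32% in TAGLN2 recur in another annotated gene, most often in ACTBP2 (4.33% of ACTB), ACTG1P20 (1.22% of ACTG1) and TAGLN2P1, against 0.01% in FLNA and 0 in the other 6. The 47 actin pseudogenes and POTE genes, taken by their symbols, held 2919 reads in control cells, 2198 under Rg3 and 2118 under TAM. These were 1.75%, 1.80% and 1.51% of the reads of ACTB and ACTG1. Their sum differed by -0.74 with Rg3 (-0.82 to -0.66), close to that of ACTB and ACTG1 together at -0.78 (-0.79 to -0.77). Adding these reads to both actins left that value at -0.78, which so small a set could hardly move. TAGLN2P1 had 520, 290 and 356 reads and a log2 fold change of -1.17 with Rg3 (-1.38 to -0.96), beside -1.15 for TAGLN2. ACTG1P20 went against ACTG1, with 340 reads in the control library and 582 with Rg3, a log2 fold change of 0.45 (0.25 to 0.65). The strand setting of the counting is not given in the sources used here, and exons of TAGLN overlap PCSK7, those of VCL overlap AP3M1, those of TPM1 overlap TPM1-AS and those of FLNA overlap AC245140.3 on the opposite strand.

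The SRF cofactors were mixed. Of 6 listed, 5 could be compared and MYOCD, the muscle cofactor, had no read in any library. With Rg3, MKL1 was called lower at -0.98 (-1.16 to -0.80), from 664 to 423 reads, and ELK4 higher at 1.23 (0.89 to 1.59), from 92 to 271. With TAM, MKL2 was called lower at -1.48 (-1.73 to -1.23), from 572 to 178 reads, and 0 were higher. ELK1, the most counted of them, was -0.44 with Rg3 and -0.01 with TAM, inside the limits. The medians of the list were 0.31 with Rg3 and -0.21 with TAM. Over all genes, 19.5% were called lower and 25.0% higher with Rg3, and 23.8% lower and 17.4% higher with TAM. With the trend removed, 0 were called with Rg3, at -0.39 for MKL1 and 0.49 for ELK4, and MKL2 remained called with TAM at -0.77.

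Among immediate early SRF targets, which answer to the ELK branch, 6 of 8 could be compared. With Rg3, 0 were higher and 2 lower (FOSB and NR4A1), with a median of -0.38. With TAM, 3 were higher (FOS, JUNB and IER2) and NR4A1 was lower, with a median of 0.31. Over all genes, 17.4% were higher and 23.8% lower with TAM, and 25.0% and 19.5% with Rg3. FOS and FOSB had few reads, with FOS at 14 in the control and 33 with TAM (1.44, 0.50 to 2.46). FOSB had 28 in the control and 16 with Rg3 (-1.13, -2.12 to -0.20). After trend removal the medians took the other sign, at 0.06 with Rg3 and -0.03 with TAM, and IER2 was no longer called with TAM (0.34), while the other calls stayed. JUNB, an AP-1 subunit, had 176 reads in control cells, 177 under Rg3 and 345 under TAM, and a log2 fold change of 1.18 with TAM (0.91 to 1.45; trend removed, 0.64). IER2 was 0.75 with TAM (0.60 to 0.91) and -0.16 with Rg3 (-0.32 to 0.01).

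Other cytoskeletal SRF targets gave 13 of 15 genes to compare. With Rg3, 6 were lower (CNN1, CNN2, MYH9, ZYX, TGFB1I1 and PDLIM7) and 2 higher (CALD1 and LIMA1), with a median of -0.52. The shares over all genes compared with Rg3 were 19.5% lower and 25.0% higher. With the trend removed, 3 were lower (CNN1, FHL2 and TGFB1I1) and 0 higher, against 10.9% of all genes lower and 8.10% higher. With TAM, 4 were higher (FHL1, TGFB1I1, CSRP1 and PDLIM7) and 2 lower (CNN1 and LIMA1), with a median of -0.06. The shares over all genes were 17.4% higher and 23.8% lower. PDLIM7 lost its call with the trend removed (0.29). TGFB1I1, an adhesion protein also known as Hic-5, differed between the drugs, with 107 reads in control cells, 54 with Rg3 (-1.31, -1.81 to -0.83) and 175 with TAM (0.92, 0.56 to 1.28). ZYX, the adhesion protein zyxin, was -1.15 with Rg3 (-1.28 to -1.02), and MYH9, the most counted, was -0.74 (-0.77 to -0.71). LIMA1, an actin-binding LIM protein, went from 325 reads to 752 with Rg3 (0.88) and 137 with TAM (-1.04).

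Genes that handle actin monomers and filament turnover went both ways with Rg3. There, GSN (gelsolin, which severs filaments) and PFN1 (profilin) were lower and CFL2 (a cofilin) was higher among 10 genes, with a median of -0.06. The shares over all genes were 19.5% lower and 25.0% higher. GSN went from 11729 reads to 6676, a log2 fold change of -1.14 (-1.18 to -1.10), and its trend-removed value was also -1.14, the single call left in this list. With TAM, PFN1 (0.65, 0.63 to 0.68) and the thymosin TMSB10 (0.62, 0.60 to 0.64) were higher and 0 were lower, with a median of 0.16. Of all genes, 17.4% were higher and 23.8% lower with TAM. Trend removal ended both calls, at 0.17 and 0.33, and DSTN was called higher (0.86) and TMSB4X lower (-0.70). PFN1 had 20899 reads in control cells, 14306 with Rg3 (-0.87) and 28476 with TAM.

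Of 15 genes of actin nucleation and capping, 4 were higher with Rg3 (ACTR2, ACTR3, CAPZA1 and CAPZA2) and 0 lower, with a median of 0.44. Over all genes compared with Rg3, 25.0% were called higher and 19.5% lower. CAPZA1, a capping subunit, went from 457 to 1231 reads (1.10, 0.95 to 1.26). With the trend removed 0 of them were called with Rg3, and the median was -0.09. With TAM, 3 were lower (ACTR2, WASL and DIAPH3) and 0 higher, with a median of -0.14, against 23.8% of all genes lower and 17.4% higher. Of these calls 0 stayed lower with the trend removed, when ARPC5 was called higher. This list has a median GC content of 42.4%.

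Of 8 genes of adhesion and crosslinking, 4 were lower with Rg3 (PXN, VASP, ACTN4 and FLNC) and 0 higher, with a median of -0.61. The shares over all genes were 19.5% lower and 25.0% higher. With the trend removed 0 were called and the median was -0.16. The Rg3 call of FLNC rests on 41 reads against 59 in the control library (-0.85, -1.46 to -0.25). ACTN4, an alpha-actinin and the most counted, had 50389 reads in control cells, 35034 with Rg3 (-0.85) and 35662 with TAM (-0.29). VASP, which acts at filament ends, had 1241, 960 and 1498 reads, with log2 fold changes of -0.70 with Rg3 (-0.82 to -0.57) and 0.48 with TAM (0.37 to 0.59). With TAM, 3 were lower (PARVA, FLNC and ITGB1) and 0 higher, with a median of -0.32, against 23.8% of all genes lower and 17.4% higher. With the trend removed the median was -0.05 and FLNC stayed lower. FLNC had few reads, 59 in the control library and 13 with TAM (-1.98, -2.97 to -1.09). The fold of PARVA, 0.669, lay at the edge of the limit. ITGB1 (integrin beta chain) had 5090 reads in control cells, 9438 under Rg3 and 2312 under TAM (-0.93, -1.0 to -0.86).

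Of the 6 genes of nonmuscle myosin II, MYH9 was lower with Rg3 and 0 were higher, with a median of -0.05, and MYH9 was not called with the trend removed (-0.28). With TAM, the heavy chain MYH10 was lower at -1.49 (-1.77 to -1.21), from 459 to 142 reads, and the light chain MYL6 was higher at 0.71 (0.67 to 0.74), from 13950 to 19725 reads, with a median of -0.24. Under trend removal MYH10 stayed lower (-1.02) and MYL6 was not called (0.42). MYL12A and MYL12B, close relatives of MYL9 that were picked for mention after their values were seen, had 3907 and 3662 reads in the control library, far above the 254 of MYL9. They were called in neither treated library, at 0.44 and 0.51 with Rg3 and -0.11 and -0.37 with TAM, but MYL12B was called lower with TAM with the trend removed (-0.59).

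**Figure D5:**
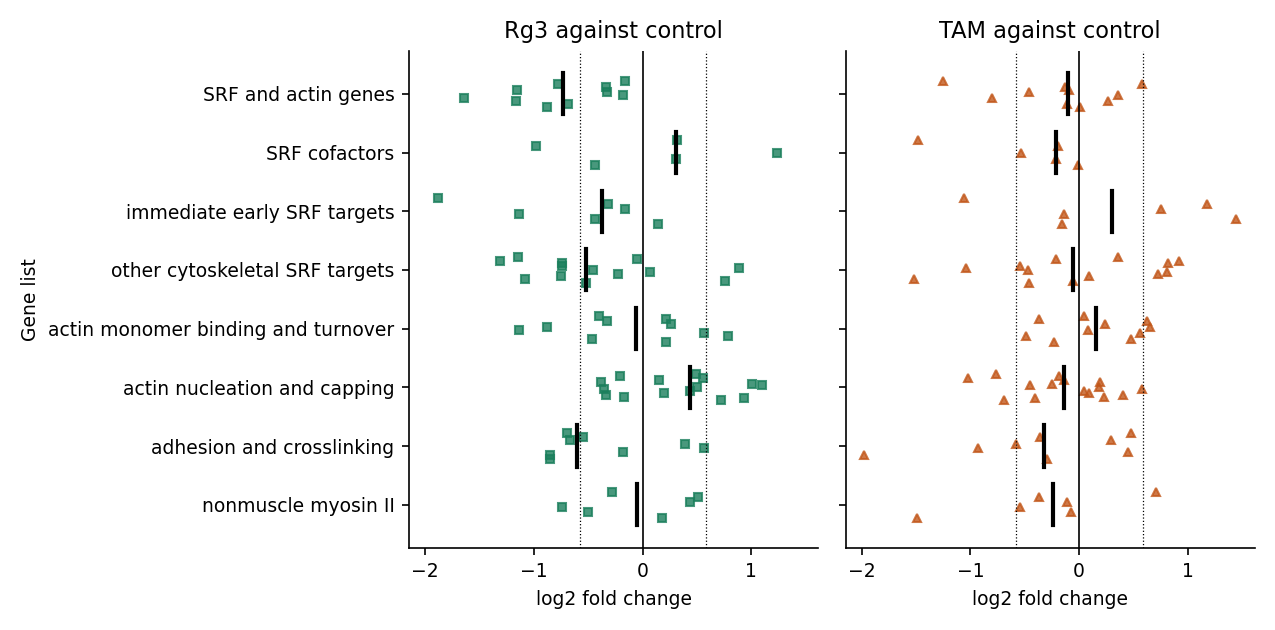
Log2 fold change of the genes of each list with Rg3 (left) and TAM (right), with 1 point for each gene, a black bar at the median of each list and dotted lines at 1.5-fold and 0.67-fold. With Rg3 the SRF and actin genes and the adhesion list have their medians past the lower limit (-0.73 and -0.61). With TAM the adhesion list has the lowest median of those drawn (-0.32). With the trend removed, which is not drawn, these medians were -0.52 and -0.16 with Rg3 and -0.05 with TAM.

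Markers of other cells were checked because several of the 10 genes are known from smooth muscle. The 6 smooth muscle markers summed to 9.84 CPM in control cells, 4.93 under Rg3 and 3.72 under TAM, most of it CNN1 (86, 51 and 26 reads). MYH11 (13, 7 and 1 reads), DES (11, 6 and 3) and ACTA2 (3, 7 and 7) had few reads, and LMOD1 and MYOCD were at 0. The 5 striated muscle markers summed to between 1.67 and 2.53 CPM, the 3 endothelial markers to at most 0.301 CPM, and the 3 acinar markers had no read. The 6 fibroblast markers summed to 180.6, 76.7 and 87.0 CPM, nearly all COL1A1 and COL3A1, while DCN had at most 1 read and LUM at most 2. Of the 2 leukocyte markers, PTPRC had at most 1 read and CD68 had 615, 426 and 1100. The 5 epithelial markers, led by KRT8 and KRT18, summed to 2379, 1082 and 2789.9 CPM, so that keratins of an epithelial line were present in all 3 libraries, and KRT8 (15329, 7817 and 14411 reads) was low with Rg3. KRT19 had 665, 290 and 181 reads, while CDH1 (76, 39 and 5) and EPCAM (26, 26 and 8) were low in every library and lowest with TAM. With Rg3 4 of the 5 epithelial markers were called lower, and with TAM 3, against 19.5% and 23.8% of all genes. With the trend removed 3 were lower with Rg3 and 3 with TAM, against 10.9% and 16.6% of all genes. The part of these differences in those of the actin genes was not tested.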

How the data were processed

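Gene counts of 3 PANC-1 libraries were used, 1 each for control, Rg3 and TAM, sequenced on an Ion Proton instrument. The authors deposited whole-number counts per gene, not normalized. Per the labels the build is GRCh38, and the study's methods name TopHat for alignment, while the counting tool, annotation and strand setting are not given in the sources used here. Library totals (11300766, 12861693 and 11321442 counts) set the counting error, which the exact 95% intervals cover.

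TMM factors came from edgeR 4.0.16 (R 4.3.3), with Python 3.11.15 for the rest. A gene was compared if 10 counts were reached in 1 of the libraries, any count below 3 was set to 3, and calls needed a fold over 1.5 or under 0.67. The study's limma test could not be fitted to single libraries. GC content and length came from the longest GENCODE 29 transcript, and the trend was a loess fit (span 0.3) on genes with at least 50 counts. Scripts were tested on simulated data. Alternatives were library totals, size factors of DESeq2 1.42.0, trend removal, minimums of 1 and 50 counts, a binomial test added to the fold, edgeR's exact test at assumed variation of 0.2 and 0.4, and summed reads of near-identical genes.

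The genes named are the 10 chosen genes, from each other list the 3 with the largest change among those with at least 100 counts plus the most abundant, and actin pseudogenes or POTE genes with at least 10 counts. Genes called in the other lists are also given by name to spell out the counts, and markers with few reads are named as well. FHL2, ARPC5, DSTN, TMSB4X, MYL12A and MYL12B were named after their values were seen. The 10 genes and all lists were chosen with earlier results of these data known. A gene and a gene list that had been examined are not reported here.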

Additional observations from a re-analysis of the deposited data

How the results depend on the processing

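No paired analysis was possible because conditions were sequenced once, and for the same reason no library could be left out. The median log2 fold change of the 10 genes was -0.59 by library totals and -0.52 after GC and length trend removal for Rg3 against control, and -0.32 and -0.45 for TAM against control. For TAM against Rg3 it was 0.36 and 0.063, and 0.84 with at least 50 counts. In TAM against Rg3, 3 of the 10 were higher by library totals (TAGLN2, TPM2 and FLNA) and 3 with the trend removed (TPM1, TPM2 and FLNA), and by DESeq2's size factors 1 (TPM2) was higher in TAM against control. The value of MYL9 in TAM against Rg3 reversed to -0.12 with the trend removed. The log2 change of the ratio of TPM2 to TPM1, a check chosen after seeing the data, reversed to 0.16 with Rg3 and to -0.079 in TAM against Rg3. Over all genes, trend removal left 1157 higher and 1561 lower with Rg3, 1766 and 2329 with TAM, and 2817 and 2717 in TAM against Rg3. Library totals gave 5180 higher and 2321 lower with Rg3, 1576 and 5259 with TAM, and 3105 and 7499 in TAM against Rg3. With at least 50 counts fewer genes were compared, and 2139 of 12594 were lower with Rg3 and 2529 of 11921 with TAM.

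With edgeR's exact test at an assumed biological variation of 0.2 (Benjamini-Hochberg), 64 genes rose past the threshold and 92 fell past it with Rg3, 109 and 365 with TAM, and 2156 and 2939 in TAM against Rg3. Of the 10 genes, 1 (MYL9) was then lower with Rg3, 0 were lower with TAM, and 3 were higher and VCL lower in TAM against Rg3. In the same order, 4, 1 and 5 of the 10 passed an unadjusted 0.05. At an assumed variation of 0.4 the counts were 0 higher and 1 lower with Rg3, 0 and 1 with TAM and 0 and 0 in TAM against Rg3, with 0 of the 10 called or past an unadjusted 0.05. The fold with a binomial test called the same members as the fold alone. These tests rest on variation that was assumed and not measured. Summing TAGLN2 with TAGLN2P1, chosen after seeing the data, gave -1.15 with Rg3 and -0.11 with TAM. Depth limits TAGLN most, at 35 reads or fewer.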

Other observations

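Among the actin pseudogenes, ACTBP12 had 78 reads in control cells, 6 under Rg3 and 8 under TAM, with log2 fold changes of -4.03 (95% counting interval -5.52 to -2.84) and -3.08 (-4.34 to -2.03). ACTBP2, the pseudogene that shares most sequence with ACTB, had 468, 324 and 383 reads, and POTEF and POTEE had 400, 244 and 293 reads and 242, 134 and 214 reads. ACTBP10 and POTEM were listed with the same counts in every library, 33, 19 and 38 reads. The cause of these patterns was not tested.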
